A study of Rattus norvegicus with 6 samples.

Results

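The miR-181 family in rat tendon-derived stem cells (rTDSCs) was represented on the array by 4 mature strands, rno-miR-181a, rno-miR-181b, rno-miR-181c and rno-miR-181d. Members were chosen by name, without the passenger strands that carry a star, and they were 4 of the 677 miRNAs on the array. Of the 4 members, 2 were detected, rno-miR-181a and rno-miR-181b, and both were detected on all 6 arrays. Of all 437 names without a star, 37.3% (163) were detected on at least 1 array. Neither passed the test between mechanical loading and non-loading, and rno-miR-181c and rno-miR-181d were at background in both groups. The comparison asked which members gave a signal and whether that signal differed under loading.

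rTDSCs are stem cells grown from the patellar tendon of 8-week-old male Sprague Dawley rats, used here at passage 3. The non-loading group held 3 samples of cells kept static for 7 days, and the mechanical loading group held 3 samples stretched along 1 axis by 10% at 0.5 Hz for 8 h per day over 7 days. Both groups grew on flexible silicone plates coated with collagen type I, and neither carried a genetic change. Colonies were pooled at the start of the culture and nothing in the labels says that the 3 samples of a group came from separate animals or cultures, so each p-value measures only the spread between these samples, which may be technical.

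A miRNA guides the silencing machinery to messenger RNAs chiefly through its seed, the bases near its 5′ end, so miRNAs with the same seed share most of their predicted targets. The miR-181 family is known from blood cell development, where miR-181a tunes the sensitivity of the T-cell receptor, and from the differentiation of myoblasts. Its genes lie as pairs of neighbours that are thought to be transcribed together.

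The mature sequences are shown because they define the family and show how little separates a detected member from one at background. They were taken from RefSeq (build GRCr8), where all 4 members were found, and the seed, bases 2 to 8, is in capitals.
rno-miR-181a: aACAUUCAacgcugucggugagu
rno-miR-181b: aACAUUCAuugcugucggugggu
rno-miR-181c: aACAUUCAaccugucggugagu
rno-miR-181d: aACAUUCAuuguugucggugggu
All 4 members held the same seed, and of the 693 mature miRNAs of the table these 4 were the only ones with it. Counted from 1 at the 5′ end, rno-miR-181b differed from rno-miR-181a by A9U, C10U and A21G. rno-miR-181c shared its first 10 and its last 12 bases with rno-miR-181a and was shorter by the base at position 11, 22 against 23 bases. rno-miR-181d differed from rno-miR-181b by 1 substitution, C12U. The closest relatives by sequence were therefore a with c and b with d, 1 change apart, while a and b were 3 changes apart and c and d 5.

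The 4 members come from 6 genes on 3 chromosomes, all on the + strand of GRCr8. rno-miR-181a lies at chr3:43025601-43025623 in Mir181a2 and at chr13:52037081-52037103 in Mir181a-1. rno-miR-181b lies at chr13:52037263-52037285 in Mir181b1, and its sequence was also matched to the hairpin of Mir181b2 at chr3:43026680-43026702. The chromosome 3 pair overlaps the protein-coding gene Nr6a1, a nuclear receptor, and a long non-coding RNA gene, with 987 bases between the hairpins. The chromosome 13 pair overlaps a long non-coding RNA gene, with 62 bases between the hairpins. rno-miR-181c lies at chr19:40888314-40888335 and rno-miR-181d at chr19:40888484-40888506, with 78 bases between the hairpins. Since the mature a and b sequences are the same from either locus, the array could not tell the chromosome 3 copies from the chromosome 13 copies.

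Each array of the 1 slide gave a background-subtracted intensity for every spot, with 2 probes for each member. To compare arrays, intensities were averaged per probe, summed over the 2 probes and expressed as a percent of a scale value of that array, the 75th percentile of the 173 probes that every array detected. The scale value lay between 262.6 and 362.2 intensity units. The arrays detected 140 to 186 miRNAs and had 0 saturated spots. To describe the cell type, lists of marker miRNAs were read. They were chosen with earlier results of these data known, so their detection is no independent check. All 6 miRNAs of a mesenchymal list (miR-199a, miR-214, miR-143, miR-145 and miR-21) were detected, 5 of them on every array and miR-145 on 3. Of 5 haematopoietic markers, miR-223 was the single one detected, on 5 arrays. The 4 others, miR-142 and the erythroid miR-451 among them, were detected on no array. The summed signal of that list was 4.48% to 8.92% of the percentile in non-loading samples and 7.72% to 9.47% under loading, against 10789% to 11756% and 11641% to 12031% for the mesenchymal list. The mesenchymal sum rests in large part on rno-miR-21. Its log2 signal relative to the percentile was 5.91 to 6.17, against 4.51 to 4.61 for rno-miR-199a-3p, the next brightest of the list. None of 4 skeletal muscle and 5 epithelial markers was detected on any array. Detected were 1 of 4 neural markers (miR-129, on 5 arrays) and 1 of 2 endothelial markers (miR-126, on all 6 arrays). The part of other cells in the miR-181 signals was not tested.

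rno-miR-181a gave the brightest signal of the family. Its scaled signal was 48.8%, 49.4% and 44.8% of the percentile in non-loading replicates 1, 2 and 3, and 50.2%, 53.3% and 53.8% in loading replicates 1, 2 and 3. Non-loading replicate 3 was the lowest array, and each loading array lay above each non-loading array, so the groups did not overlap. Group means were 47.7% ± 2.47 (SD, n = 3) and 52.4% ± 1.92 (SD, n = 3). On the log2 scale the means were -1.07 ± 0.08 and -0.93 ± 0.05, a difference of 0.14 (SE 0.08, 95% interval -0.06 to 0.33), or 1.10-fold. In limma, this difference had a p of 0.132 and a Benjamini-Hochberg adjusted p of 0.709 over the 148 miRNAs tested. The exact two-sided permutation test gave p = 0.1, the smallest that 3 arrays against 3 allow. In bulk RNA, a change in the share of cells that make a miRNA and a change of its amount per cell cannot be told apart.

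rno-miR-181b was about 4 times dimmer and showed no separation of the groups. Its scaled signal was 12.8%, 11.7% and 10.8% of the percentile in the 3 non-loading samples and 12.4%, 11.5% and 11.95% in the 3 loading samples. The highest and the lowest array were both non-loading, so the loading arrays lay inside the non-loading range. Means were 11.7% ± 0.989 (SD, n = 3) and 11.9% ± 0.469 (SD, n = 3). The log2 difference was 0.03 (SE 0.09, 95% interval -0.20 to 0.25) with a limma adjusted p of 0.936, and the exact permutation test gave p = 0.9. The interval runs from 0.873-fold to 1.19-fold, so changes in that range were not excluded.

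**Figure D1:**
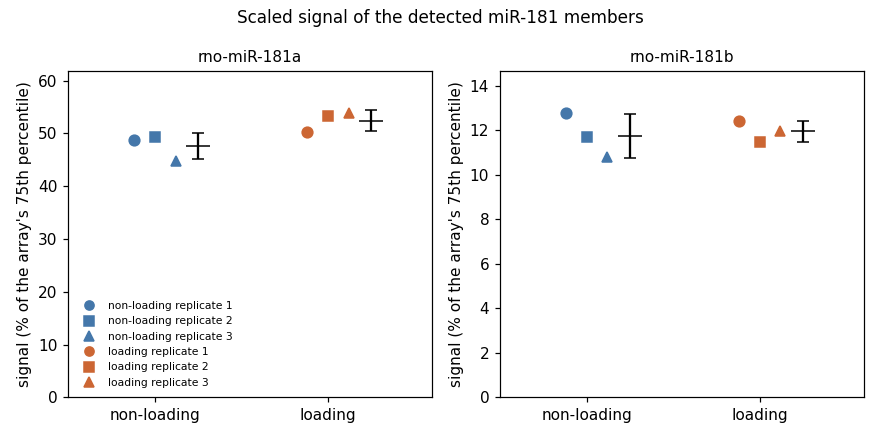
Signal of rno-miR-181a (left) and rno-miR-181b (right) as a percent of the array's 75th percentile, 1 point per array, with the mean and SD of each group as a bar beside the points (n = 3). The loading points of rno-miR-181a, 50.2% to 53.8%, sit above its non-loading points, 44.8% to 49.4%, and those of rno-miR-181b lie within its non-loading range of 10.8% to 12.8%.

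Against the background of all tested miRNAs, the family did not stand out. An unadjusted limma p under 0.05 was found for 9.46% of them (14 of 148), and neither tested member was among those. After adjustment in limma 0% (0 of 148) passed. The groups did not overlap for 15.5% of the tested miRNAs, and rno-miR-181a was 1 of those 23. The median log2 change of all 148 was 0.06 and 99 of them were higher under loading, so rno-miR-181a differed from that median by 0.07 and rno-miR-181b by -0.04. Without non-loading replicate 3 the median was -0.01, and with any other array left out it was 0.05 to 0.09. By p, rno-miR-181a ranked 27 and rno-miR-181b 122 of 148. By size of change they ranked 57 and 131.

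**Figure D2:**
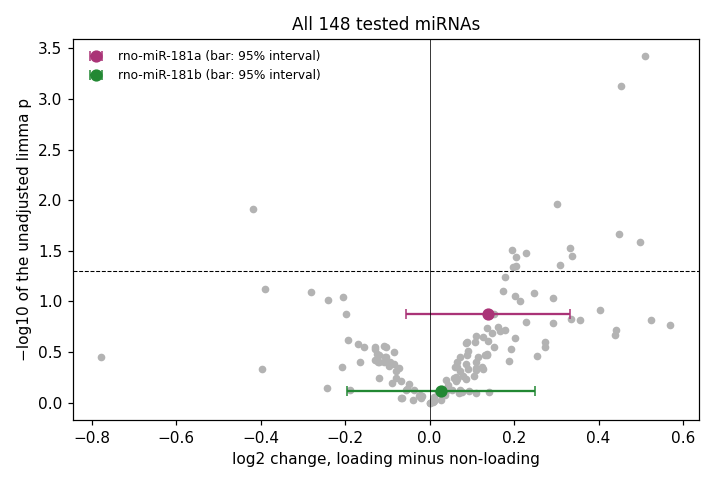
Log2 change (loading minus non-loading, horizontal) against the −log10 of the unadjusted limma p (vertical) for the 148 tested miRNAs, each a grey point, with rno-miR-181a and rno-miR-181b in colour and their 95% intervals as bars. The dashed line marks the 0.05 threshold, with 14 miRNAs above it and both members below, and both intervals cross 0.

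The 2 probes of each detected member were compared, because they differ in signal and in distance to background. For rno-miR-181a, the brighter probe had a mean of 38.3% ± 1.66 of the percentile in non-loading and 41.5% ± 1.69 in loading samples (SD, n = 3), a log2 difference of 0.12. The dimmer probe had 9.43% ± 0.824 and 10.9% ± 0.269, a log2 difference of 0.22. Both probes separated the groups without overlap, each with an exact permutation p of 0.1, and 120 of 120 spots over the 6 arrays were well above background. The brighter probe was 3.73 to 4.28 times the dimmer on every array.

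For rno-miR-181b, the probes differed in sign. The brighter probe had 8.68% ± 0.770 and 8.58% ± 0.370 of the percentile, a log2 difference of -0.01 (exact permutation p = 0.9), with 59 of 60 spots called well above background. The dimmer probe had 3.07% ± 0.235 and 3.36% ± 0.102, a log2 difference of 0.14 (exact permutation p = 0.2). For this probe 24 of 60 spots were called, 8 in non-loading and 16 in loading samples, and its mean intensity of 8.54 to 11.01 units stood close to the 95th percentile of the negative-control spots, which was 6.42 to 8.84 units. Both probes overlapped between the groups.

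The error that replicate spots leave in an array's value was compared with the spread between arrays. For rno-miR-181a the standard error of the summed signal from replicate spots was 1.83% to 3.104% of the value, and the coefficient of variation between arrays was 5.19% in non-loading and 3.67% in loading samples. For rno-miR-181b the spot error was 1.76% to 5.77%, against 8.42% and 3.93% between arrays.

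The ratio of rno-miR-181a to rno-miR-181b within an array is left as it is when the array is divided by 1 value. It is a ratio of array signals, which also depend on each probe, and does not give the ratio of molecules. The signal of rno-miR-181a was 3.82, 4.22 and 4.16 times that of rno-miR-181b in non-loading replicates 1, 2 and 3, and 4.05, 4.64 and 4.502 times in loading replicates 1, 2 and 3. Loading replicate 1 fell among the non-loading arrays, so the groups overlapped. The log2 ratio was 2.02 ± 0.08 in non-loading and 2.13 ± 0.10 in loading samples (SD, n = 3), a difference of 0.11 (exact permutation p = 0.3), the 1 pair of members that could be compared. Without loading replicate 1 the difference was 0.17 and the groups did not overlap (exact permutation p = 0.1, the smallest that 3 arrays against 2 allow). Without non-loading replicate 1 it was 0.07, and without loading replicate 2 also 0.07. With quantile normalization, which rescales each signal by its rank, it was 0.0089 (exact permutation p = 1). A 95% interval from the pooled SD ran from -0.10 to 0.32. The brighter probes gave ratios of 4.42 and 4.84 (difference in log2 0.13, exact permutation p = 0.3), and the dimmer probes 3.07 and 3.24 (difference 0.08, exact permutation p = 0.2). A change of the a member relative to the b member was thus not detected with the summed, the brighter or the dimmer probes, and the interval does not exclude one of up to 0.32 on the log2 scale.

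**Figure D3:**
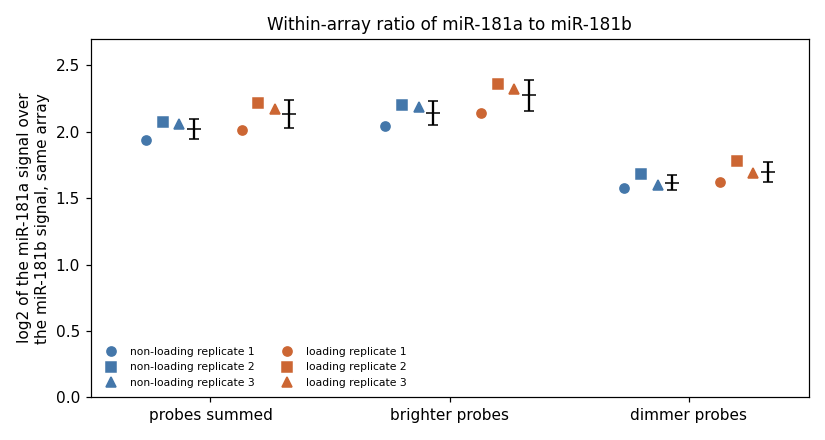
Log2 of the rno-miR-181a signal over the rno-miR-181b signal on the same array (vertical), from the summed, the brighter and the dimmer probes, 1 point per array, with the mean and SD of each group as a bar (n = 3). In each set the loading points overlap the non-loading points, and the mean ratio from summed probes is 4.07 in non-loading and 4.39 in loading samples.

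rno-miR-181c and rno-miR-181d were detected on 0 of 6 arrays. Of their 240 spots, 1 was well above background, a spot of rno-miR-181c on a loading array. The summed signal of rno-miR-181c lay between -0.914% and 0.987% of the percentile and that of rno-miR-181d between -0.00208% and 1.04%, under the 1.87% below which signals were set to a floor, so no fold is given. All 24 probe means of the pair, 2 probes for each of 2 members on 6 arrays, were below the median of the negative-control spots of their array, which ranged from 2.81 to 4.14 intensity units. The order of array signals was thus a, then b, and c and d could not be ordered. rno-miR-181c read at background on the same arrays on which rno-miR-181a, longer by 1 base, had 134 to 175 intensity units. Not being detected here bounds the signal of the probe and does not show that the RNA was absent.

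The chromosome 19 pair has other miRNA genes near it, and these were bright. Mir23a, Mir27a and Mir24-2 lie 28448 to 28729 bases from the hairpin of Mir181c. rno-miR-23a, rno-miR-27a and rno-miR-24 were detected on all 6 arrays, at 620% to 831%, 479% to 579% and 664% to 819% of the percentile. Their log2 changes were 0.11, 0.17 and 0.20, with limma adjusted p of 0.724, 0.606 and 0.486. The groups overlapped for rno-miR-23a and did not for rno-miR-27a and rno-miR-24, as for 15.5% of all tested miRNAs. The unadjusted limma p of rno-miR-24 was 0.046, and 9.46% of all tested miRNAs had one under 0.05. rno-miR-24 also has a gene elsewhere, so its signal is not that of this locus alone.

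The passenger strands come from the opposite arm of the same hairpins and were at background throughout. The array held 6 of them, rno-miR-181a-1*, rno-miR-181a-2*, rno-miR-181b-1*, rno-miR-181b-2*, rno-miR-181c* and rno-miR-181d*, and 0 were detected on any array, with 6 of 720 spots well above background. Across the array, 27 of 240 star names (11.2%) were detected on at least 1 array. The strand nearest to detection was rno-miR-181a-1*, which pairs with rno-miR-181a in the chromosome 13 hairpin and whose sequence is shown for that reason, at chr13:52037121-52037142 (+ strand, GRCr8).
rno-miR-181a-1*: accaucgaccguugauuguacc
Its summed signal was 1.26% to 2.82% of the percentile, with means of 1.64% ± 0.575 in non-loading and 2.64% ± 0.232 in loading samples (SD, n = 3), with 4 of 120 spots called well above background. Of its 12 probe means 5 were above the negative-control median of their array, and all 12 were below the 95th percentile of those spots. rno-miR-181a-2*, the partner from chromosome 3, had summed signals below 0 on all 6 arrays, as did the 4 remaining strands. The gene Mir3570 overlaps Mir181a-1, and rno-miR-3570 was detected on 0 arrays.

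**Figure D4:**
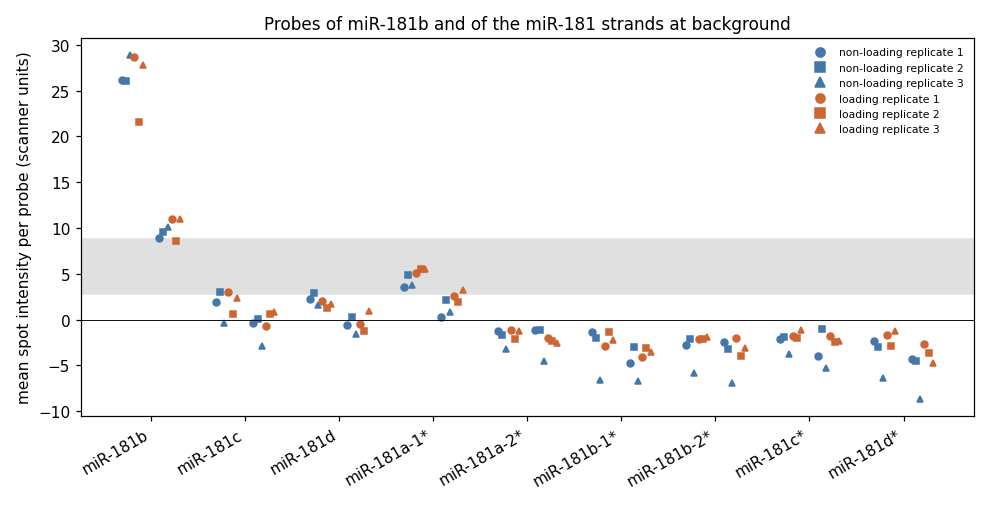
Mean spot intensity (scanner units, vertical) of each of the 2 probes, brighter one left, of rno-miR-181b and of the members and passenger strands that were not detected, 1 point per array. The grey band runs from the lowest median to the highest 95th percentile of the negative-control spots, 2.81 to 8.84 units, with rno-miR-181b near or above its upper edge and all other strands inside or below it.

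The sign of both changes depended on the processing. Over 25 other settings, the log2 change of rno-miR-181a was positive in 23. The exceptions were -0.25 with normexp background correction and -0.02 with the percentile taken over all probes. There, the median of all miRNAs was -0.45 and -0.09. Settings that changed only the source of the values, the floor, the filter, the test or the replicate block left the change at 0.14 by construction. They are no separate support for its sign. Relative to the median of all miRNAs, the change of rno-miR-181a was above 0 in each setting. It ran from 0.007 with the slide row as a block to 0.20 with normexp. The adjusted p of rno-miR-181a was between 0.438 and 0.997 in all 25 settings. The separation of its groups was lost in 7 of the 25 settings. Of these, 6 changed the background correction, the scaling or, with total gene signal, the summary of the probes. The other left out non-loading replicate 3, where the change was 0.08. The change of rno-miR-181b was negative in 8 of 25 settings and its groups overlapped in all 25. Overlap was read from the array values. Settings that changed only the source, floor, filter, test, array weights or blocks could thus not alter it for either member. Relative to the median of all miRNAs, the change of rno-miR-181b was -0.04 as reported, without scaling and with the percentile over all probes. With normexp and with total gene signal it was -0.06. It lay above that median with quantile normalization (0.01), the mean of log2 probe signals (0.02) and no detection filter (0.03). The same held with the slide row as a block (0.01) and without non-loading replicate 1 (0.007), so its place relative to the median also depended on the setting.

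**Figure D5:**
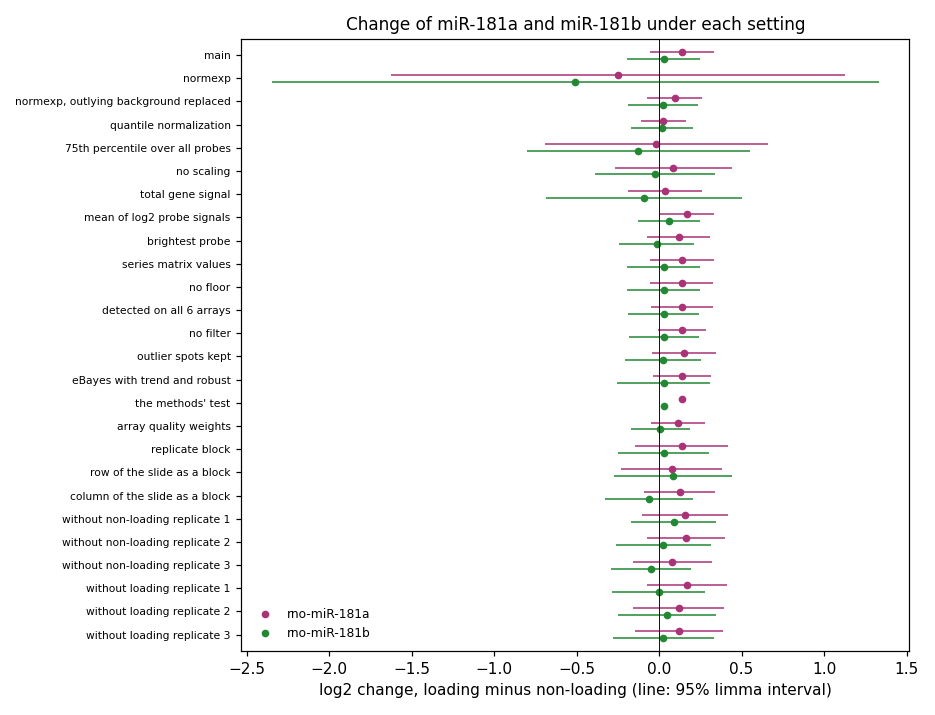
Log2 change (loading minus non-loading, horizontal) of rno-miR-181a and rno-miR-181b under the reported processing (main) and 25 alternatives, with 95% limma intervals as lines (the methods' test has none). The values run from -0.25 to 0.17 for rno-miR-181a and from -0.51 to 0.09 for rno-miR-181b.

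The place of an array on the slide and its group were partly crossed. Of the slide's columns 2 held 1 array of each group, and 1 row held 3 non-loading arrays with 1 loading array. Within these columns the log2 difference of rno-miR-181a was 0.13 and 0.12, and within the row it was 0.08. For rno-miR-181b the column differences were -0.15 and 0.03 and the row difference 0.08. Each of these values rests on 1 loading array. In limma with the column as a block, the change was 0.13 (adjusted p 0.523) for rno-miR-181a and -0.06 (adjusted p 0.728) for rno-miR-181b. With the row as a block, both changes were 0.08. The other row held loading replicates 2 and 3 alone, so this fit sets loading replicate 1 against the 3 non-loading arrays. The column fit likewise rests on the 2 columns that held both groups. Neither fit is thus a check apart from the differences within columns and row.

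Across the 6 arrays, rno-miR-181a and rno-miR-181b moved together weakly, with Pearson's r of 0.377 and Spearman's rho of 0.143, given as a description over arrays that share a slide, scan and scaling. Among the 146 other tested miRNAs, the 3 with a pattern most like rno-miR-181a were rno-miR-410 (r = 0.989), rno-miR-342-3p (r = 0.949) and rno-miR-125a-5p (r = 0.934), and 6 had an r over 0.9. The 3 most like rno-miR-181b were rno-miR-129 (r = 0.987), rno-miR-1949 (r = 0.966) and rno-miR-3593-3p (r = 0.899), and 2 had an r over 0.9. Of these 6, rno-miR-125a-5p was brighter than rno-miR-181a, at 64.9% to 81.7% of the percentile, while rno-miR-410, rno-miR-129 and rno-miR-3593-3p were dim, at 2.77% to 8.47%, and detected on 5 arrays each. No miRNA was among the 3 most alike of both members.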

How the data were processed

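Total RNA of the 6 samples was labelled with Cy3 and hybridised to Agilent rat miRNA arrays (v16.0). The authors deposited spot intensity values that Agilent Feature Extraction 10.7.3.1 (version 10.7 in the submitters' processing notes) had background-subtracted, unscaled between arrays. The deposited series matrix held the same intensities (largest difference 0). Deposited detection and outlier flags are coded values of other kind.

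Control and outlier spots (2.93% to 4.17% of an array) were removed, and log2 was taken after setting signals under 1.87% of the scaling percentile to that floor. Detected on all arrays of a group were 148 of 677 miRNAs, compared in limma 3.58.1 (lmFit, eBayes, R 4.3.3), adjusted p threshold 0.05, all 6 arrays, no covariate. The code was tested on simulated data. The number of arrays limits the precision.

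Members and lists were chosen with earlier results of these data known. Named are the members, their passenger strands, the 3 most correlated miRNAs per detected member, and miRNAs encoded within 50 kb. Array names were matched to RefSeq by mature name. The array annotation uses an older build, and no GRCr8 genome was used. Alternatives covered background correction (normexp, offset 50, on median signal and median background, since no mean signal column was used), scaling, probe summary, floor, filters, test, blocks and left-out arrays.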

Additional observations from a re-analysis of the deposited data

How the results depend on the processing

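The log2 change of rno-miR-181a, 0.14, turned to -0.25 with normexp and to -0.016 with the percentile over all probes. That of rno-miR-181b, 0.03, turned to -0.51 with normexp, -0.13 with all probes, -0.025 without scaling, -0.090 with total gene signal, -0.013 with the brightest probe and -0.061 with the slide column as a block. The ratio change of 0.11 turned to -0.0062 with the slide row as a block, a value for which loading replicate 1 is the only loading array used. It was 0.0089 with quantile normalization, 0.26 with normexp, 0.07 with outlying background replaced before normexp, 0.19 with the slide column as a block, and 0.07 to 0.17 with 1 array left out, highest without loading replicate 1. Leaving out 1 array gave 0.08 to 0.17 for rno-miR-181a and -0.048 to 0.088 for rno-miR-181b, negative without non-loading replicate 3 (-0.048) and without loading replicate 1 (-0.00087). With a replicate block the changes stayed 0.14 (adjusted p 0.850) and 0.03 (adjusted p 0.951). The deviations of same-numbered arrays correlated at -0.69, -0.47 and 0.11. This gave no sign of pairing but cannot decide it, since array-wide shifts also enter these values and the labels are silent. The count of miRNAs with an unadjusted p under 0.05, 14, was 0 with normexp, 8 with outlying background replaced before normexp, 1 with all probes, 4 without scaling, 8 with total gene signal, 6 with the replicate block and 7 with the slide row. With 1 array left out it was 6 to 17, namely 7 when loading replicate 1 was absent and 6 when loading replicate 3 was. The count with an adjusted p under 0.05, 0, was 2 with the methods' test, array weights, quantile normalization, a trended robust eBayes, mean log2 of probes, the brightest probe, detection required on every array, and outlier spots included. Neither rno-miR-181a nor rno-miR-181b was called under any of these. The cause of these differences was not tested. Signal over background limits rno-miR-181b, rno-miR-181c, rno-miR-181d and the passenger strands.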
